A study of Mus musculus with 16 samples.

Results

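The ratio of ribosome-bound to total messenger RNA was examined gene by gene in the liver of mice fed a high-fat diet with added betaine (HB). The members were the 6880 of 24539 genes in the tables that reached at least 10 CPM (read counts scaled to the library total) in both HB total mRNA libraries, a choice that used total mRNA and not the ratio. The HB group and the HF group set beside it (high-fat diet without betaine) were livers of male C57BL/6 mice that were 8 weeks old when the diet began, were fed for 8 weeks and were sampled at 16 weeks of age. For each diet there were 2 ribosome-bound and 2 total mRNA libraries among the 16 samples of the series, and each was made from material pooled from independent experiments, per the labels, so single mice cannot be told apart in any value below. No lean or chow-fed group was among the samples used here. Betaine is a methyl donor that liver cells use to turn homocysteine back into methionine.

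A messenger RNA under translation carries ribosomes with growing peptide chains, and such complexes sediment through a sucrose cushion while free mRNA stays above it. Sequencing the mRNA of the pellet (ribosome–nascent chain complexes, RNC) beside the total polyadenylated mRNA gives, for each gene, a ratio that says how its share of the pellet compares with its share of all mRNA. Because both libraries are scaled to their own totals, a ratio is relative to the other genes of the same liver, and it does not count ribosomes per molecule. In the liver, translation is known for large output of secreted plasma proteins and for strong control by nutrients over mRNAs that begin with a 5′ terminal oligopyrimidine tract (5′ TOP), which include those of the ribosome's own proteins.

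The ribosome-bound tables held 6508500 and 8659310 reads in HB, against 22492813 and 18011999 reads in the HB total mRNA libraries. A read was seen for 9351 and 9374 genes ribosome-bound, against 15556 and 15536 genes in total mRNA. Chi-square divided by its degrees of freedom was 1.40 between the HB ribosome-bound tables and 98.5 between the HB total mRNA libraries, so the ribosome-bound tables were nearly as close as repeated reads of 1 library and were summed to 1 library of 15167810 reads. There is therefore no replicate of the HB ribosome-bound measurement, and the test borrowed its spread from the other libraries. Hepatocyte markers took 5.57% of the ribosome-bound reads, against 10.2% and 8.98% of the total mRNA reads, and all 9 lymphocyte markers had 0 ribosome-bound reads. The other fixed lists, for Kupffer, sinusoidal endothelial, stellate, bile duct, red blood, neutrophil and fat cells, each took under 0.142% of any HB library, which was the share of red blood cell markers in total mRNA library 2.

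The median member had a log2 ratio of -0.16, with quartiles of -1.36 and 0.80, so the median gene held a slightly smaller share of the pellet than of total mRNA. The sign of this median rests on the choice of members by total mRNA: it was 0.22 when members were chosen on the mean of both kinds of library. Ribosome-bound CPM exceeded both total mRNA values in 2860 members and lay under both in 3321. Values that do not overlap were thus usual among the 6880 members and set no single gene apart. In edgeR's quasi-likelihood test on 7 libraries with Benjamini-Hochberg adjustment, at a threshold of 0.05, 717 members were called higher ribosome-bound (10.4% of members; 8.19% of the 13454 genes tested) and 870 were called lower (12.6% of members; 19.9% of all genes tested, of which 28.1% were called in either direction). All 6880 members entered the test, 464 of the 870 had at least 20 ribosome-bound reads, and 316 had none. The number of calls rests on single libraries. Without HF ribosome-bound replicate 1 there were 1628 higher and 2244 lower members, without replicate 2 there were 1623 and 2239, and with any 1 of the HB or HF total mRNA libraries left out the edgeR test called 0 genes (smallest adjusted p 0.0772 to 0.0972), although 4061 to 4553 genes had an unadjusted p under 0.05; on all libraries limma voom called 1036 members higher and 1156 lower, and DESeq2 called 744 higher and 1856 lower. Every call named below therefore holds in the 7-library fit and is lost without any 1 total mRNA library. Of the genes named below, limma on log2(RPKM + 0.1) also did not call Rack1, Ptcd3, Rplp2, Alb, Apoe, Atp5b, Fdps, Dgat2, Gamt, Fth1 and Malat1. In limma voom Rps10, Rplp2 and Rpl31 were not called, and without HB ribosome-bound replicate 2 Alb, Gamt and Rpl31 were not called. A replicate block added a term for the replicate number within each diet, with the HB ribosome-bound pair kept as 2 libraries. With it Rps6kb1, Pes1, Rps6ka1, Rpl7l1, Ptcd3, Alb, Apoe, Amt, Crebbp, Srp14, Hspa4l and Gpr182 were not called. Scaling moved the balance: 45.2% of the members' calls were higher with library totals, 30.3% with TMM scaling, 28.6% in DESeq2 and 76.4% after an offset for transcript length. The median log2 ratio of all genes tested was -0.53 with library totals, -0.90 with TMM scaling, -0.89 in DESeq2 and 0.50 with the length trend removed. Each ratio below is therefore relative to a centre that the scaling sets. For single genes, a length trend removed means this offset in the fit. It raised the members' median fitted ratio from -0.16 to 0.87. A call lost or a sign changed with it can come from that shift of centre, and is no measure of length alone. For lists, the members' own trend of ratio with length was subtracted instead, which is another procedure.

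**Figure D1:**
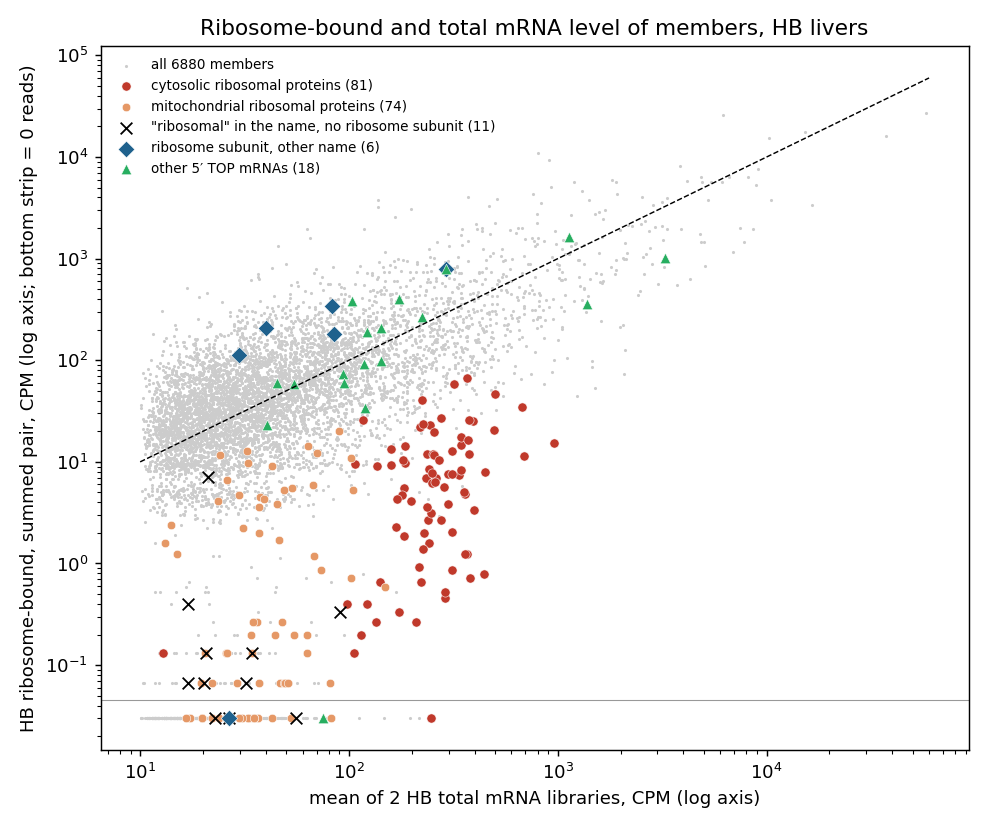
Ribosome-bound CPM of the summed HB pair (vertical, log axis, with members at 0 reads in the bottom strip) against the mean of 2 HB total mRNA libraries (horizontal, log axis) for 6880 members, with the line of equal values dashed. The 155 cytosolic and mitochondrial ribosomal protein genes lie under the line, as do the 11 members that encode no subunit but carry the word ribosomal in their names, while 5 of 6 ribosome subunits with other names lie above it.

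The lowest medians among the 45 lists were those of the ribosome's own proteins. Of the 49 large-subunit cytosolic ribosomal protein genes, all members, 38 were called lower ribosome-bound and 0 higher, and of 32 small-subunit members 30 were lower and 0 higher. Of all members 12.6% were called lower and 10.4% higher. The median log2 ratios of the large-subunit and small-subunit members were -4.92 and -5.41, against -0.16 for all members. Together they took 0.0585% and 0.0253% of the ribosome-bound reads, against 1.17% and 1.56% (large) and 0.729% and 1.03% (small) of the reads in total mRNA libraries 1 and 2. The proteins of the mitochondrial ribosome, encoded by nuclear genes whose mRNAs are not 5′ TOP mRNAs as a class, were as low: 50 of 74 members were lower and 0 higher, 23 had no ribosome-bound read, and the median was -5.51 (-5.89 with genes at 0 set to the limit of 3 reads in the summed library).

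Rps2, a small-subunit protein, had 14.8 and 15.6 CPM ribosome-bound, against 843 and 1073 CPM in total mRNA (log2 ratio -5.97 ± 0.82 (SE), adjusted p = 0.0221). Rplp0, the scaffold of the ribosomal stalk, had 0.615 and 0.924 CPM ribosome-bound, against 412 and 471 CPM in total mRNA (log2 ratio -9.11 ± 0.55 (SE), adjusted p = 0.0135). In both genes the ribosome-bound values lay more than an order of magnitude under either total mRNA value. Rpl3, which lines the peptidyl transferase centre, had 0.307 and 0.231 CPM ribosome-bound, against 242 and 175 CPM in total mRNA (log2 ratio -9.58 ± 2.07 (SE), adjusted p = 0.0298). Rps27l, a paralogue of Rps27 that responds to p53, had 0 ribosome-bound reads, against 213 and 281 CPM in total mRNA, so it was at least 1249-fold lower at the limit that 3 reads in the summed library set. Mrps34, a small-subunit protein of the mitochondrial ribosome, also had 0 ribosome-bound reads, against 78.6 and 85.5 CPM in total mRNA (at least 415-fold lower), and Mrpl12, which also contacts the mitochondrial RNA polymerase, had 0.768 and 0.462 CPM ribosome-bound, against 132 and 164 CPM in total mRNA. In these genes the ribosome-bound values lay under both total mRNA values, as in 3321 of the 6880 members.

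Among themselves the plain log2 ratios of the cytosolic ribosomal protein members, with 0.5 CPM added to both values, ran from -8.95 to -2.16. Those of the mitochondrial ones ran from -7.37 to -1.02. The lowest of each, Rps27l and Mrps34, had 0 ribosome-bound reads. On this plain scale Rpl3 and Rplp0 stood at -8.10 and -8.42. All other ratios in this paragraph are fitted. The least low cytosolic members with a call were Rpl21, with 37.2 and 43.4 CPM ribosome-bound, against 205 and 242 CPM in total mRNA (log2 ratio -2.46 ± 0.28 (SE), adjusted p = 0.0202), and Fau, whose product is a ubiquitin-like protein fused to ribosomal protein S30, with 65.0 and 68.4 CPM ribosome-bound, against 284 and 448 CPM in total mRNA (log2 ratio -2.45 ± 0.38 (SE), adjusted p = 0.0254). Mrpl18 was the least low called member of the mitochondrial ribosome, with 14.1 and 10.6 CPM ribosome-bound, against 60.9 and 80.2 CPM in total mRNA; with a length trend removed it was not called (-1.38). Of the 10 lowest called members with at least 20 ribosome-bound reads, 9 were cytosolic ribosomal protein genes (Rpl18, Rpl36al, Rpl29, Rplp1, Rps19, Rps10, Rplp2, Rpl17 and Rpl31), with ribosome-bound values of 1.27 to 4.04 CPM and log2 ratios of -7.34 to -6.27. The other was Atp5f1, a stator subunit of ATP synthase. Many ribosomal protein genes have processed pseudogenes, and how reads shared with them were counted is not given in the sources used here.

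Other 5′ TOP mRNAs, which encode elongation and initiation factors and are regulated with the ribosomal proteins in mammalian cells, were not low as a group. Of 18 members 3 were higher and 3 were lower, beside 10.4% and 12.6% of all members. The median was -0.13, and it was above 0 without HB total mRNA library 1 (0.19) and with the members' own length trend subtracted (0.02). Eef1a1, the factor that brings aminoacyl-tRNA to the ribosome, had 1029.6 and 1009 CPM ribosome-bound, against 3862 and 2695 CPM in total mRNA (log2 ratio -1.69 ± 0.33 (SE), adjusted p = 0.0261). Eef2, the translocase of elongation, had 358 and 362 CPM ribosome-bound, against 1313 and 1448 CPM in total mRNA (log2 ratio -1.94 ± 0.25 (SE), adjusted p = 0.022). Both were lower, by less than 2 log2 units, and with the length offset in the fit neither was called (-0.65 for Eef1a1 and -0.79 for Eef2). With the members' own length trend subtracted, their plain ratios stood at -1.49 and -1.84. Eef1d, an exchange factor for Eef1a, was higher, with 391 and 384 CPM ribosome-bound, against 81.8 and 124 CPM in total mRNA (log2 ratio 1.91 ± 0.32 (SE), adjusted p = 0.0254), as was Eif4b (log2 ratio 1.22), a cofactor of the helicase that unwinds mRNA leaders. Tpt1 and Pabpc1, classical 5′ TOP mRNAs for a translationally controlled tumour protein and the poly(A)-binding protein, had ratios of 0.52 and -0.54 and did not pass the test. Npm1, a nucleolar chaperone of ribosome assembly, had 0 ribosome-bound reads, against 87.1 and 63.8 CPM in total mRNA, at least 382-fold lower.

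Sequences around the annotated transcription start are shown for genes that differ in runs of C and T near the start and in their ratio. They are RefSeq windows of 30 bases (build GRCm38.p6) from 10 bases before the start, 5′ to 3′ on the gene's strand. Rpl7a (chr2:26910797-26910826, plus strand) and Rps6 (chr4:86857348-86857377, minus strand) are ribosomal protein genes. Rack1 (chr11:48800350-48800379, plus strand) is a 5′ TOP gene that is not low, and Eef1a1 (chr9:78481705-78481734, minus strand) is one that is less low. Rps6kb1 (chr11:86544788-86544817, minus strand), a kinase, and Pes1 (chr11:3963965-3963994, plus strand), a nucleolar factor, had 0 ribosome-bound reads. Capitals mark the longest unbroken run of C and T.
Rpl7a: CTCTTCTTTCTTTCTCCagcagccgagcaa
Rps6: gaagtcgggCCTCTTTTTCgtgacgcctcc
Rack1: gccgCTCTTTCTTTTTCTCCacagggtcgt
Eef1a1: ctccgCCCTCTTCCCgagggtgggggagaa
Rps6kb1: gcgccggagctgaaCTTgaggagccagtct
Pes1: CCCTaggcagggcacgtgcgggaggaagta
Runs could begin before the annotated start, as those of Rpl7a, Rps6, Rack1 and Eef1a1 did, and that of Pes1 lay wholly before it. A run is therefore not shown to be a 5′ TOP tract of the RNA. Rpl7a and Rack1 carried runs of 17 and 16 bases and had log2 ratios of -8.28 and 1.46. Rps6 had a run of 10 bases and a fitted ratio of -8.16 that did not pass the test (adjusted p = 0.0572). Rps6kb1 and Pes1 had no run longer than 4 bases. Their plain ratios were -5.54 and -5.77, both at 0 reads, where the 0.5 CPM added limits the ratio. A run of at least 8 C or T within the window, on the transcribed strand, was found at 24 of the 60 cytosolic ribosomal protein members with a sequence (40.0%), at 762 of 5449 members (14.0%) and at 3517 of 27025 genes with an annotated start (13.01%). The cytosolic ribosomal protein members with such a run had a median ratio of -5.16 and those without it -5.47. Annotated starts can lie some bases from the start used in liver, so a tract outside the window is not seen.

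Genes that encode no ribosome subunit but carry the word ribosomal in their full names were also low, mostly at or near 0 reads. These sets were written from general knowledge of full gene names after the values had been seen, so they describe and do not test. Of 22 genes named for ribosomal protein S6 kinases, ribosomal RNA processing or other ribosomal terms that encode no subunit, 11 were members, and 10 of those 11 were called lower and 0 higher, with a median of -5.54. Together the 22 genes had 189 ribosome-bound reads, against 9292 and 7465 reads in total mRNA, and Rrp36 and Rrp12 had 107 and 63 of the 189. Rps6kb1, the S6 kinase that acts downstream of mTORC1, had 0 ribosome-bound reads, against 25.2 and 20.4 CPM in total mRNA (at least 115-fold lower). Rps6ka1, a kinase of the RSK family that acts downstream of ERK, had 0 and 0.231 CPM ribosome-bound, against 20.9 and 20.4 CPM in total mRNA. Rrp1, a nucleolar factor, had 0.615 and 0.115 CPM ribosome-bound, against 77.0 and 105 CPM in total mRNA (log2 ratio -8.06 ± 1.33 (SE), adjusted p = 0.0254), and Pes1, the pescadillo ribosomal biogenesis factor, had 0 ribosome-bound reads, against 28.0 and 25.5 CPM in total mRNA. Rpl7l1, related in sequence to a ribosomal protein, had 0 ribosome-bound reads, against 62.0 and 49.4 CPM. Of the other 11 genes, under the member threshold, 9 had at least 50 reads in total mRNA, and 8 of those 9 had at most 1 ribosome-bound read. The exception was Rrp12, with 5.07 and 3.46 CPM ribosome-bound, against 8.31 and 7.55 CPM in total mRNA.

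The 6 listed ribosome subunits with other names mostly had ratios above 0 (median 1.67, with 4 higher and 1 lower). The counts of this set and of the next stand beside 10.4% of all members higher and 12.6% lower. The list was written after the values were seen and may leave out other such subunits. Rack1, a scaffold bound to the head of the cytosolic small subunit, had 805 and 789 CPM ribosome-bound, against 250.1 and 329.9 CPM in total mRNA (log2 ratio 1.46 ± 0.29 (SE), adjusted p = 0.0267), and was not called with TMM scaling (1.08). Dap3, a GTP-binding small-subunit protein of the mitochondrial ribosome, had 210.0 and 209.8 CPM ribosome-bound, against 39.0 and 41.0 CPM in total mRNA (log2 ratio 2.39 ± 0.49 (SE), adjusted p = 0.0271). Its values ribosome-bound were above both in total mRNA, as in 2860 of the 6880 members. Gadd45gip1, a large-subunit mitochondrial protein, and Ptcd3, a small-subunit one, were also higher, with log2 ratios of 2.05 and 1.90 (1.53 and not called for Ptcd3 with TMM scaling), and Aurkaip1 had a ratio of 1.09 that did not pass the test (adjusted p = 0.21). Chchd1 was the exception, with 0 ribosome-bound reads, against 28.5 and 24.7 CPM in total mRNA. Genes with the word ribosome rather than ribosomal in their names, also no subunits, had 1 of 5 members called higher and 0 lower: Rbfa, a maturation factor of the mitochondrial small subunit, at 1.67, beside Rrbp1, a ribosome-binding protein of the endoplasmic reticulum, at 1.21 (adjusted p = 0.0517) and Mrrf, the mitochondrial recycling factor, at -2.92 (adjusted p = 0.497). Rn45s, the ribosomal RNA precursor, had 24.9 and 19.2 CPM ribosome-bound, against 96.3 and 556 CPM in total mRNA (adjusted p = 0.131). Removal of ribosomal RNA reads is described in the labels for the m6A libraries, and the corresponding step for these tables is not given in the sources used here. Whether reads of genes with such names were set aside before counting was not tested.

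In HF livers the large-subunit, small-subunit and mitochondrial ribosomal protein members had median log2 ratios of -4.67, -5.10 and -4.85. Of these, 45, 30 and 52 were called lower and 0 higher, beside 11.8% of all members lower and 6.51% higher in HF. All 11 members of the kinase and processing set were called lower (median -5.35). Rack1, Dap3 and Chchd1 had ratios of 0.98, 2.26 and 0.13 in HF. The HF ribosome-bound tables were not near-copies of each other (98.0 by the same measure).

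The 10 highest called ratios were 4.27 to 4.96 on the fitted log2 scale. Magt1, a magnesium transporter and subunit of the oligosaccharyl transferase, had 1957 and 1968 CPM ribosome-bound, against 68.0 and 58.0 CPM in total mRNA (log2 ratio 4.96 ± 0.23 (SE), adjusted p = 0.0135). Eif5b, the GTPase that joins the ribosomal subunits, had 1324 and 1325 CPM ribosome-bound, against 48.0 and 43.4 CPM in total mRNA (log2 ratio 4.86 ± 0.28 (SE), adjusted p = 0.0135). Pabpn1, the nuclear poly(A)-binding protein, had 3753 and 3735 CPM ribosome-bound, against 120.4 and 156 CPM in total mRNA (log2 ratio 4.76 ± 0.42 (SE), adjusted p = 0.0194). In each, both ribosome-bound values were more than an order of magnitude above both total mRNA values. Larp4b, which binds mRNA and poly(A)-binding protein, Zcchc7, a subunit of the complex that tails RNAs for decay, Nop56, a core protein of box C/D ribonucleoproteins, and Ppan, an assembly factor of the large subunit, had log2 ratios of 4.60, 4.58, 4.47 and 4.46. Akap8l, a nuclear anchoring protein, had a ratio of 4.27 and Mapk1ip1 one of 4.93. Mug-ps1, a pseudogene of the murinoglobulins whose close relatives are abundant liver mRNAs, had a ratio of 4.55, and its count is uncertain for that reason. All 10 were called higher in HF too, with HF log2 ratios of 1.5 (Zcchc7) to 3.61 (Eif5b).

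A separate set of members had no ribosome-bound read at all. There were 491 of them (7.14% of members), 467 outside the ribosomal protein lists. The share fell with abundance, from 15.0% of the 1663 members at 10 to 20 CPM in total mRNA, through 8.20% at 20 to 50 CPM and 1.45% at 50 to 100 CPM, to 0.401% of 1248 members at 100 to 1000 CPM and 0 of 126 above that. Of the 491, 128 also had 0 reads in both HF ribosome-bound tables, 184 in 1 of them and 179 in neither, and 94 had at least 10 CPM in both HF tables. Acads, the short-chain acyl-CoA dehydrogenase of mitochondrial fatty acid oxidation, had 0 reads in both HB ribosome-bound tables, against 199.7 and 194 CPM in total mRNA, and 22.8 and 22.2 CPM in the HF ribosome-bound tables. Ugt1a1, which conjugates bilirubin, Ugt3a1, a relative with other sugar donors, and Mup14 were also at 0 with 222 and 73.7, 118 and 105 and 175 and 258 CPM in total mRNA. None of these 3 passed the test, and each belongs to a family with near-identical members among which reads can be split. Members just inside the threshold (305 genes at 10 to 11 CPM in the lower library) had a median ratio of 0.20 with 18.4% at 0 reads, and the 303 genes just outside it (9 to 10 CPM) had -0.11 with 20.1%.

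**Figure D2:**
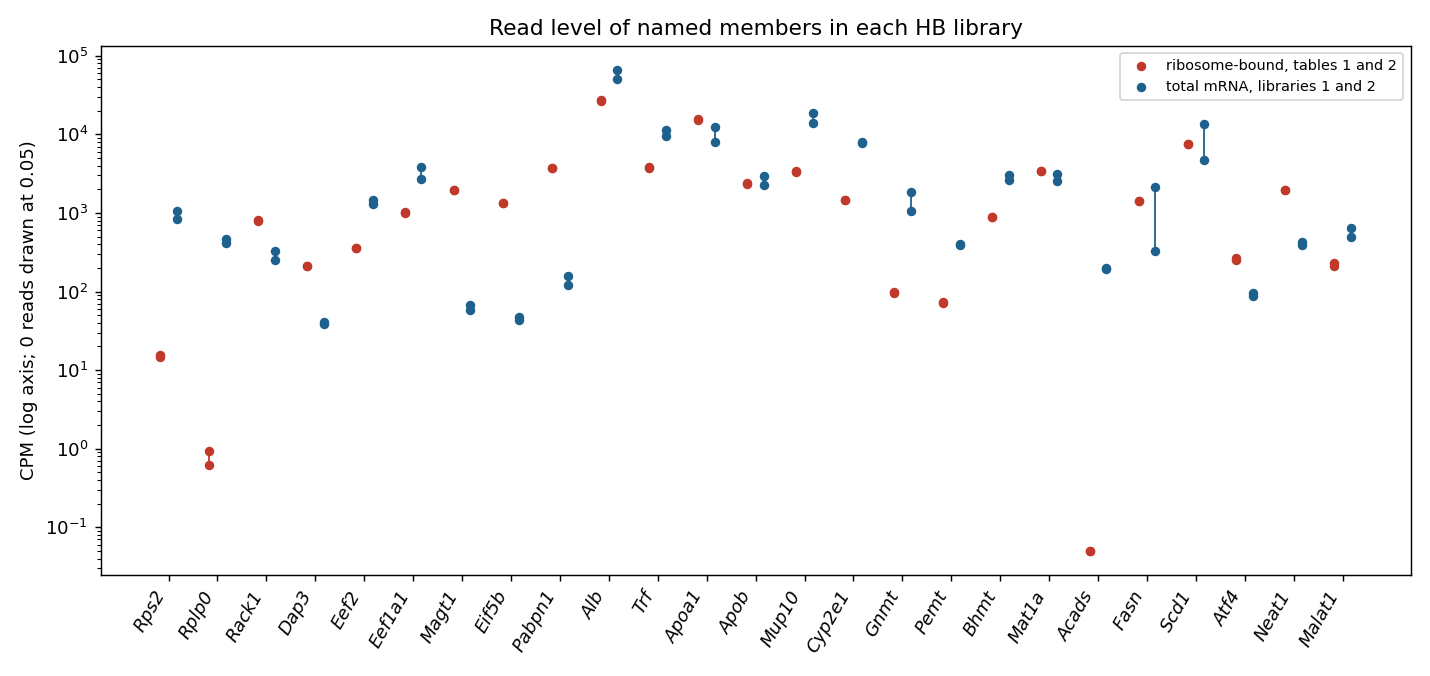
CPM (log axis; 0 reads drawn at 0.05) of 25 named members in both HB ribosome-bound tables (red, left) and both HB total mRNA libraries (blue, right), joined by a line. The red pairs nearly coincide for every gene, whereas Fasn spans 323 to 2116 CPM between the total mRNA libraries; Rps2, Rplp0 and Acads sit far under their total mRNA values, and Magt1, Eif5b and Pabpn1 far above.

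Median ratios in HB were higher in longer bins when all members were counted. Medians by the longest listed transcript were -0.53 under 1 kb (599 members), -0.34 at 1 to 2 kb (1707), -0.18 at 2 to 4 kb (2675), 0.01 at 4 to 6 kb (1169) and 0.13 over 6 kb (730), and Spearman's rho between ratio and length across the 6880 genes was 0.10. Genes are not independent replicates, so no p is given. Longer members were also less abundant, with median total mRNA of 64.0 CPM under 1 kb and 27.5 CPM over 6 kb. Ratios were lower in abundant members, with medians of 0.15 at 10 to 20 CPM and -0.96 above 1000 CPM. Length was not separated from abundance. The share called lower was 23.9% under 1 kb and 8.63% over 6 kb, and the share called higher was 10.5% and 11.6%. Ribosomal protein genes are mostly short: 96 of the 599 shortest members were in the ribosomal protein lists, and without these lists the medians were -0.11, -0.26, -0.18, 0.01 and 0.14 from the shortest bin to the longest, with no steady rise, and rho was 0.05. Without the lists 13.3% were called lower under 1 kb and 8.52% over 6 kb. The median over 6 kb minus that under 1 kb was 0.67 for all members, 0.97 without HB total mRNA library 1 and 0.43 without library 2. The ribosomal protein members with a transcript of 1 kb or more (59 genes) had a median of -5.38, and the 96 shorter ones -5.37. In HF the medians of the same bins were -0.29, -0.12, -0.27, -0.39 and -0.30, with no rise with length (rho -0.04); the difference between the diets in this trend was not tested.

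Single mRNAs at the ends of the length range varied widely. The shortest member with at least 20 ribosome-bound reads, Atp5k, a small membrane subunit of ATP synthase (292 bases), had 297 and 288 CPM ribosome-bound, against 70.9 and 163 CPM in total mRNA (adjusted p = 0.116). The longest, Macf1, a giant linker of actin and microtubules (23495 bases), had 263 and 270.1 CPM ribosome-bound, against 87.3 and 136 CPM in total mRNA (adjusted p = 0.0553). In both genes the ribosome-bound values lay above both total mRNA values, as in 2860 of the 6880 members, and neither passed the test. Giant scaffold proteins as a list had 6 of 32 members higher and 3 lower (median 0.44), beside 10.4% and 12.6% of all members.

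**Figure D3:**
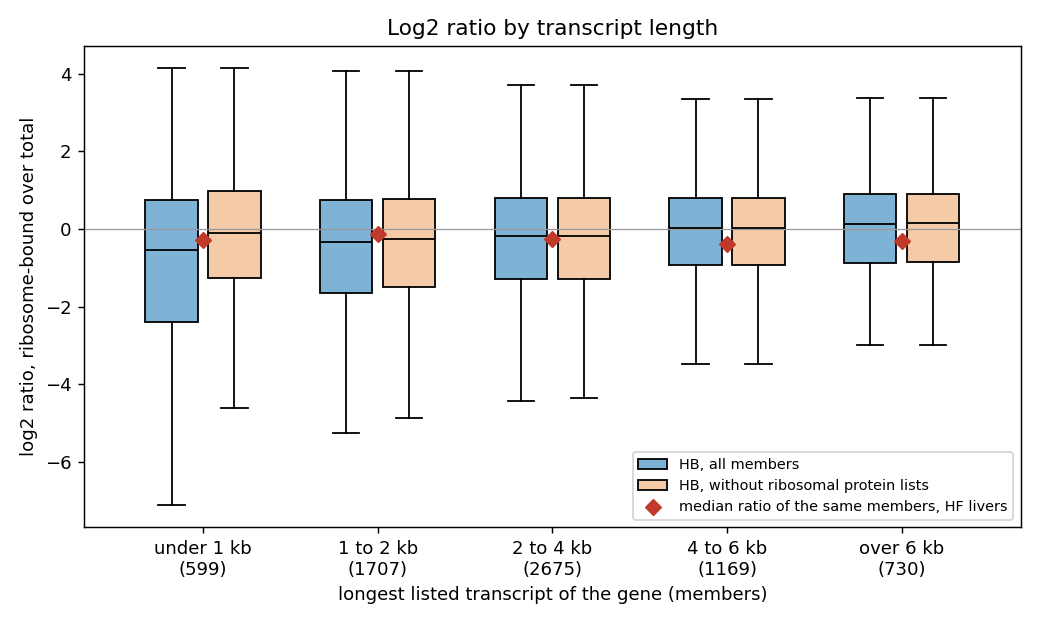
Log2 ratio (vertical) of members in 5 bins of transcript length (horizontal), as boxes with median and quartiles and whiskers to 1.5 times the interquartile range, for all members (blue) and without the ribosomal protein lists (orange) in HB; red diamonds are the medians of the same members in HF. HB medians run from -0.53 under 1 kb to 0.13 over 6 kb, and without ribosomal proteins the bins at 1 to 2 kb (-0.26) and 2 to 4 kb (-0.18) lie under the shortest (-0.11), while the HF medians do not climb.

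The most abundant liver mRNAs encode secreted plasma proteins, and several held a smaller share of the pellet than of total mRNA. Lower ratios were general among abundant members. The median was 0.15 at 10 to 20 CPM in total mRNA, -0.70 at 100 to 1000 CPM and -0.96 above 1000 CPM, with quartiles there of -1.71 and 0.02. The medians of lists, read beside -0.16 for all members, were not adjusted for abundance. Alb, serum albumin, had 27226 and 26885 CPM ribosome-bound, against 65914 and 50026 CPM in total mRNA (log2 ratio -1.10 ± 0.28 (SE), adjusted p = 0.0441). Trf, the iron carrier transferrin, had 3830.4 and 3778 CPM ribosome-bound, against 11400.0 and 9586 CPM in total mRNA (log2 ratio -1.47 ± 0.25 (SE), adjusted p = 0.0254), and Serpina1a, an antitrypsin, had 1948 and 1937 CPM ribosome-bound, against 9741 and 7439 CPM in total mRNA (log2 ratio -2.15 ± 0.34 (SE), adjusted p = 0.0254). For all 3 the ribosome-bound values lay under both total mRNA values, as in 3321 of the 6880 members. With a length trend removed none of the 3 was called, at -0.03 for Alb, -0.42 for Trf and -1.11 for Serpina1a, in a fit whose members' median was 0.87. With the members' own length trend subtracted from the plain ratios instead, they stood at -0.92, -1.32 and -1.93. Of 35 albumin and plasma carrier members 11 were lower and 3 higher, beside 12.6% and 10.4% of all members, with a median of -0.73; the highest was Afm, a vitamin E carrier, with 888 and 871 CPM ribosome-bound, against 239 and 187 CPM in total mRNA. Ttr, the thyroid hormone carrier, had a ratio of -0.74 and did not pass the test (adjusted p = 0.129).

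Of 19 apolipoprotein and lipoprotein assembly members 3 were higher and 2 lower, shares near those of all members (10.4% and 12.6%), and the median was 0.59. Apoe, the ligand for remnant clearance, had 15854 and 15986 CPM ribosome-bound, against 30651 and 43901 CPM in total mRNA (log2 ratio -1.23 ± 0.31 (SE), adjusted p = 0.0434), and was not called with a length trend removed (-0.13). Apoc1 and Apoc4, small exchangeable apolipoproteins in the same gene cluster as Apoe, were higher, with log2 ratios of 2.06 and 2.25, so neighbours in 1 cluster lay on opposite sides. Angptl8, which inhibits lipoprotein lipase after feeding, had 623 and 611 CPM ribosome-bound, against 34.3 and 33.9 CPM in total mRNA (log2 ratio 4.18 ± 0.29 (SE), adjusted p = 0.0156). Apoa1 and Apoa2, the main proteins of high-density lipoprotein, had ratios of 0.59 and 0.20, Apob, the protein of very-low-density lipoprotein, had -0.14 and Apoc3, an inhibitor of remnant uptake, had 1.09; none of these 4 passed the test. Coagulation and complement had 5 higher and 5 lower of 41 (median -0.55), shares near those of all members (10.4% and 12.6%), from Fga, the fibrinogen alpha chain, with 224 and 223 CPM ribosome-bound, against 2738 and 1370.1 CPM in total mRNA, to Klkb1, plasma prekallikrein, with 921 and 934 CPM ribosome-bound, against 208 and 214 CPM in total mRNA. Major urinary proteins, pheromone carriers of the mouse, had 7 of 17 members lower and 0 higher (median -2.28), led in abundance by Mup10 with 3339 and 3396 CPM ribosome-bound, against 13913 and 18935 CPM in total mRNA (log2 ratio -2.28 ± 0.36 (SE), adjusted p = 0.0254), and reads can be split among these near-identical genes.

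Mitochondrial energy pathways had medians on both sides of 0, and their counts stand beside 10.4% of all members higher and 12.6% lower. Fatty acid oxidation and ketone body genes had 13 of 34 members lower and 0 higher, with a median of -1.41, beside the background of 12.6% lower. Cpt1a, the gate for fatty acid entry into mitochondria, had 150.4 and 153 CPM ribosome-bound, against 417 and 393 CPM in total mRNA (log2 ratio -1.42 ± 0.30 (SE), adjusted p = 0.0287). Acadm, Hadh and Hadha, dehydrogenases and a hydratase subunit of the same spiral, had log2 ratios of -2.96, -2.18 and -1.49 and were lower. With a length trend removed Cpt1a (-0.33), Hadh (-1.15) and Hadha (-0.36) were not called, and neither was Atp5b (-0.59). Acaa1b, a peroxisomal thiolase, had a ratio of 0.49 and did not pass the test (adjusted p = 0.599). Respiratory complex I had 10 of 37 subunits higher and 2 lower and a median of 0.67, and its mRNAs are short (median longest transcript 681 bases). Ndufb7 had 726 and 739.9 CPM ribosome-bound, against 99.6 and 194 CPM in total mRNA (log2 ratio 2.32 ± 0.49 (SE), adjusted p = 0.0285), and Ndufb6, another subunit of the membrane arm, had 13.5 and 10.2 CPM ribosome-bound, against 97.4 and 119 CPM in total mRNA (log2 ratio -3.22 ± 0.44 (SE), adjusted p = 0.0221). Complexes III, IV and V had 5 higher and 7 lower of 38 (median -0.42). Uqcrq, a subunit of complex III, had 4284 and 4362 CPM ribosome-bound, against 571 and 951 CPM in total mRNA, whereas Atp5f1 had 3.38 and 2.54 CPM ribosome-bound, against 312 and 229 CPM in total mRNA (log2 ratio -6.54 ± 0.93 (SE), adjusted p = 0.0232) and Atp5b, the catalytic beta subunit of ATP synthase, had 330.5 and 333 CPM ribosome-bound, against 1269 and 811 CPM in total mRNA.

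**Figure D4:**
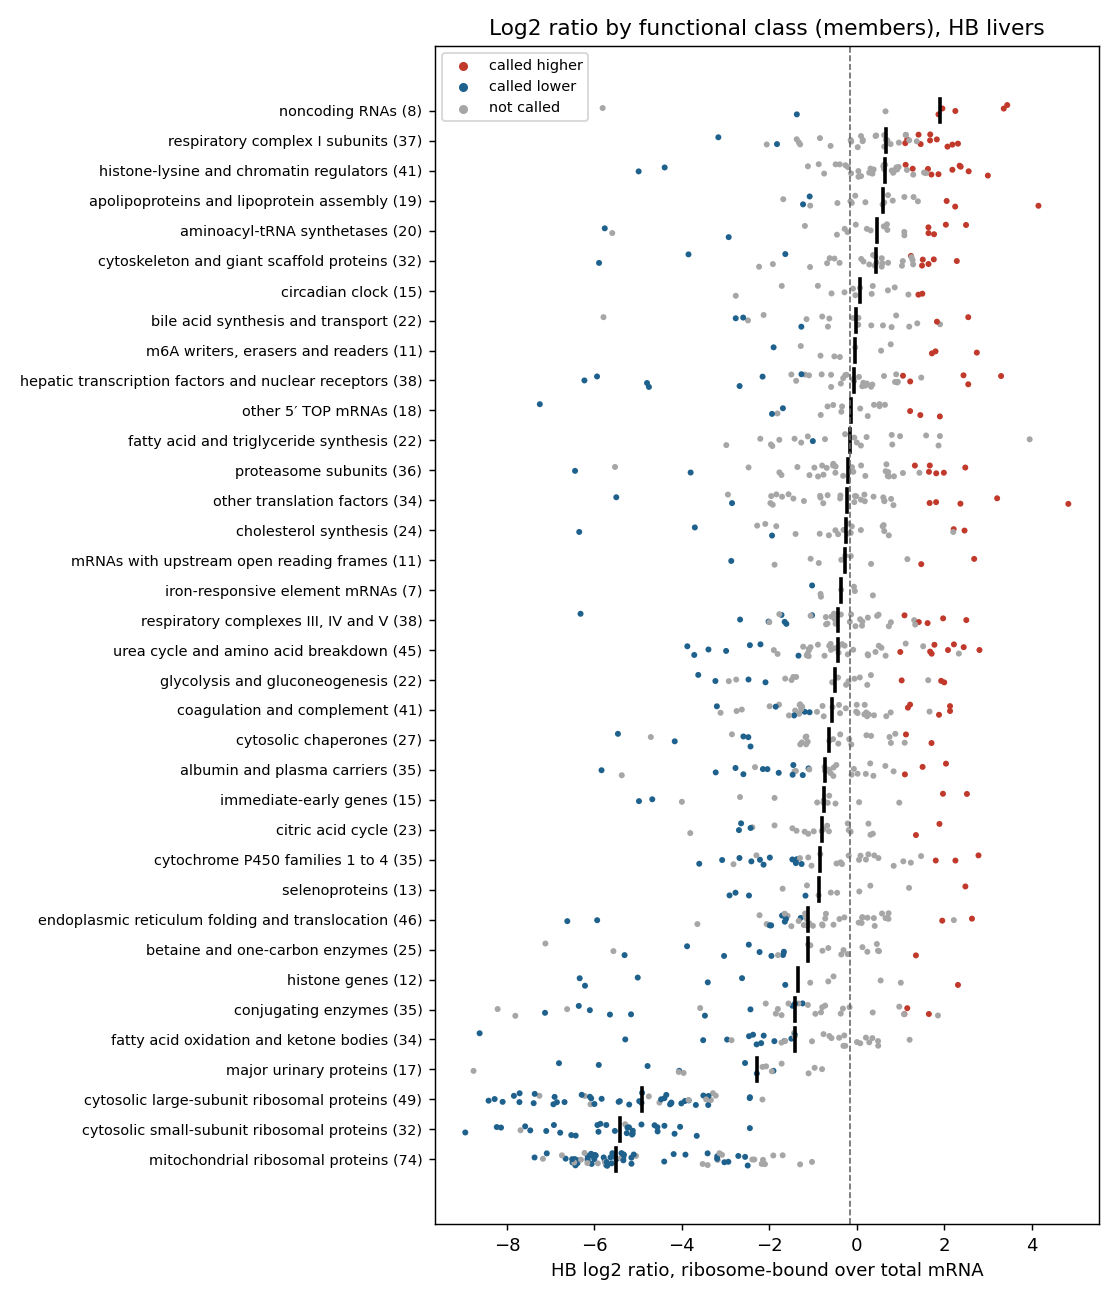
Log2 ratio (horizontal) of each member in the functional classes (rows, with the number of members), coloured by call in the 7-library edgeR fit, with the class median as a black bar and the median of all members (-0.16) dashed. The 3 ribosomal protein classes stand at -4.92 to -5.51, the major urinary proteins at -2.28 and fatty acid oxidation at -1.41. Complex I (0.67) and a list of 8 noncoding RNA members (1.92) lie to the right. All 68 members with only noncoding accessions had a median of 0.36.

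Enzymes that make or use methyl groups were of interest because betaine is a methyl donor. Of 25 betaine and one-carbon members 8 were lower and 1 higher, beside 12.6% and 10.4% of all members, with a median of -1.11. Bhmt, which uses betaine to remethylate homocysteine, had 889 and 888 CPM ribosome-bound, against 2658 and 3002 CPM in total mRNA, and its log2 ratio of -1.67 ± 0.86 (SE) did not pass the test (adjusted p = 0.206). Gnmt, which disposes of excess S-adenosylmethionine by methylating glycine, had 96.2 and 99.9 CPM ribosome-bound, against 1853 and 1053 CPM in total mRNA (log2 ratio -3.89 ± 0.61 (SE), adjusted p = 0.0254). Pemt, which methylates phosphatidylethanolamine to phosphatidylcholine, had 73.0 and 70.4 CPM ribosome-bound, against 391 and 405 CPM in total mRNA (log2 ratio -2.48 ± 0.31 (SE), adjusted p = 0.0207). For Gnmt and Pemt the ribosome-bound values lay under both total mRNA values, as in 3321 of the 6880 members. Cth, the cystathionine lyase of the route to cysteine, and Mthfd1, a folate enzyme, were lower too (-2.22 and -1.66), Mthfd1 not with a length trend removed (-0.48). Mat1a, the liver synthase of S-adenosylmethionine, had 3377 and 3404 CPM ribosome-bound, against 3163 and 2566 CPM in total mRNA and did not differ beyond the test's threshold (adjusted p = 0.652). Gamt, which methylates guanidinoacetate to creatine, was the 1 member higher, with 919 and 967 CPM ribosome-bound, against 298 and 441 CPM in total mRNA (log2 ratio 1.36 ± 0.35 (SE), adjusted p = 0.045), a call lost with TMM scaling (0.97) and in DESeq2 (1.00). Amt, of the glycine cleavage system, had 0 ribosome-bound reads, against 22.5 and 16.1 CPM in total mRNA.

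Of 45 urea cycle and amino acid breakdown members 8 were higher and 7 lower (median -0.42), beside 10.4% and 12.6% of all members. Tdo2, the tryptophan dioxygenase that marks hepatocytes, had 61.9 and 55.1 CPM ribosome-bound, against 1069 and 645 CPM in total mRNA (log2 ratio -3.88 ± 0.61 (SE), adjusted p = 0.0254), and Prodh2, of hydroxyproline breakdown, had 3290.5 and 3264 CPM ribosome-bound, against 348 and 587 CPM in total mRNA (log2 ratio 2.81 ± 0.37 (SE), adjusted p = 0.022). Cps1 and Ass1, enzymes of the urea cycle, had ratios of -1.10 and -1.06 that did not pass the test. Among cytochrome P450 genes 12 of 35 members were lower and 3 higher (median -0.83). Cyp2e1, the ethanol-inducible enzyme, had 1466 and 1478 CPM ribosome-bound, against 7749.5 and 7897 CPM in total mRNA (log2 ratio -2.41 ± 0.23 (SE), adjusted p = 0.0197), and Cyp2a22 had 195 and 197 CPM ribosome-bound, against 29.4 and 26.6 CPM in total mRNA. Conjugating enzymes had 10 lower and 3 higher of 35 (median -1.41, 7 at 0 reads), among them Mgst1, a membrane glutathione transferase, with 554 and 565 CPM ribosome-bound, against 3212 and 2832 CPM in total mRNA. With a length trend removed Mgst1 was not called (-1.31). Reads of the Cyp2, Ugt and Gst families can be split between paralogues.

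The total mRNA libraries differed widely for the main enzymes of fatty acid synthesis. Fasn, the fatty acid synthase, had 1412 and 1438 CPM ribosome-bound, against 2116 and 323 CPM in total mRNA (adjusted p = 0.897), and Scd1, the stearoyl-CoA desaturase, had 7551 and 7635 CPM ribosome-bound, against 13591 and 4668 CPM in total mRNA (adjusted p = 0.892). The ribosome-bound values lay between the total mRNA values in both. Only Dgat2, the last enzyme of triglyceride synthesis, was called among 22 fatty acid and triglyceride synthesis members, with 337 and 347 CPM ribosome-bound, against 670.4 and 704 CPM in total mRNA; with a length trend removed its ratio was 0.05. Of 24 cholesterol synthesis members 2 were higher and 3 lower, beside 10.4% and 12.6% of all members (median -0.25, and 0.13 without HB total mRNA library 1). Fdps, the farnesyl diphosphate synthase, had 1481 and 1461 CPM ribosome-bound, against 374 and 156 CPM in total mRNA (log2 ratio 2.47 ± 0.63 (SE), adjusted p = 0.0438; not called with TMM scaling, at 2.11), and Hmgcs1, the cytosolic synthase at the head of the pathway, was also higher (2.22).

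Chromatin regulators and RNAs with noncoding accessions had medians above that of all members, of which 10.4% were higher and 12.6% lower. Chromatin regulators had 10 of 41 members higher and 2 lower (median 0.65, against 0.13 for all members over 6 kb; their median longest transcript is 8457 bases). Chd7, a chromatin remodeller, had 234 and 224 CPM ribosome-bound, against 19.8 and 36.4 CPM in total mRNA (log2 ratio 3.02 ± 0.48 (SE), adjusted p = 0.0254), and Crebbp, the CREB-binding acetyltransferase, had 0 ribosome-bound reads, against 14.0 and 16.7 CPM in total mRNA. Onecut2, a hepatic transcription factor, had 841 and 824 CPM ribosome-bound, against 119 and 48.1 CPM in total mRNA, and Nr1h4, the bile acid receptor, had 704 and 725 CPM ribosome-bound, against 103 and 139.8 CPM in total mRNA (log2 ratio 2.56 ± 0.29 (SE), adjusted p = 0.0202). Hnf4a, the hepatocyte master regulator, had a ratio of 0.36 that did not pass the test. Members whose only accessions are noncoding (NR) numbered 68 and had a median ratio of 0.36, with 14 higher and 8 lower, against -0.16 for 6812 members with a coding (NM) accession. Neat1, the scaffold RNA of nuclear paraspeckles, had 1962 and 1955 CPM ribosome-bound, against 429 and 390.1 CPM in total mRNA (log2 ratio 2.26 ± 0.43 (SE), adjusted p = 0.0255), whereas Malat1, an RNA of nuclear speckles, had 229.8 and 213 CPM ribosome-bound, against 641 and 498 CPM in total mRNA (log2 ratio -1.37 ± 0.28 (SE), adjusted p = 0.0271; not called with a length trend removed, at -0.58). Gas5 and Snhg20, hosts of small nucleolar RNAs, had ratios of 1.96 and 3.47 and were higher. A pellet of ribosomes can also hold other large complexes, and their share was not measured.

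The same ratio in HF livers was set beside the HB ratio for the 6880 members. The HF median was -0.26, and 448 members were called higher (6.51%) and 813 lower (11.8%) in HF; of all genes tested 29.1% were called there. Both diets called 310 members higher and 411 lower, and 8 members were called in opposite directions; HB and HF ratios come from separate libraries but 1 shared estimate of spread. Spearman's rho between the HB and HF ratios across the 6880 genes was 0.58, as a description. The difference of the ratios, tested as an interaction, was called in 430 members (6.25%; 9.58% of all genes tested), with 200 higher (2.91% of members; 6.15% of all genes tested) and 230 lower (3.34%; 3.43% of all genes tested) in HB, and 152 of those 230 had 0 HB ribosome-bound reads. Without 1 total mRNA library the test called 0 differences, and with the replicate block, 0 as well.

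Some named members differed between the diets beyond that threshold. Pemt had a fitted log2 ratio of -2.48 in HB, against -0.29 in HF (difference -2.19, adjusted p = 0.0347). Eef2 had -1.94 in HB, against 0.12 in HF (adjusted p = 0.0347). Atf4, the transcription factor of the integrated stress response, whose upstream reading frames govern its translation, had 252 and 264 CPM ribosome-bound, against 88.9 and 96.4 CPM in total mRNA in HB, and its ratio was 1.48, against -0.20 in HF (adjusted p = 0.0384). Neat1 had 2.26 in HB, against -0.30 in HF, and Gnmt -3.89 in HB, against -0.94 in HF, and neither difference passed (adjusted p = 0.0624 and 0.0691). Acads, Npm1, Amt and Chchd1, at 0 reads in HB, had plain HF ratios of -1.22, -0.37, -0.30 and 0.13.

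**Figure D5:**
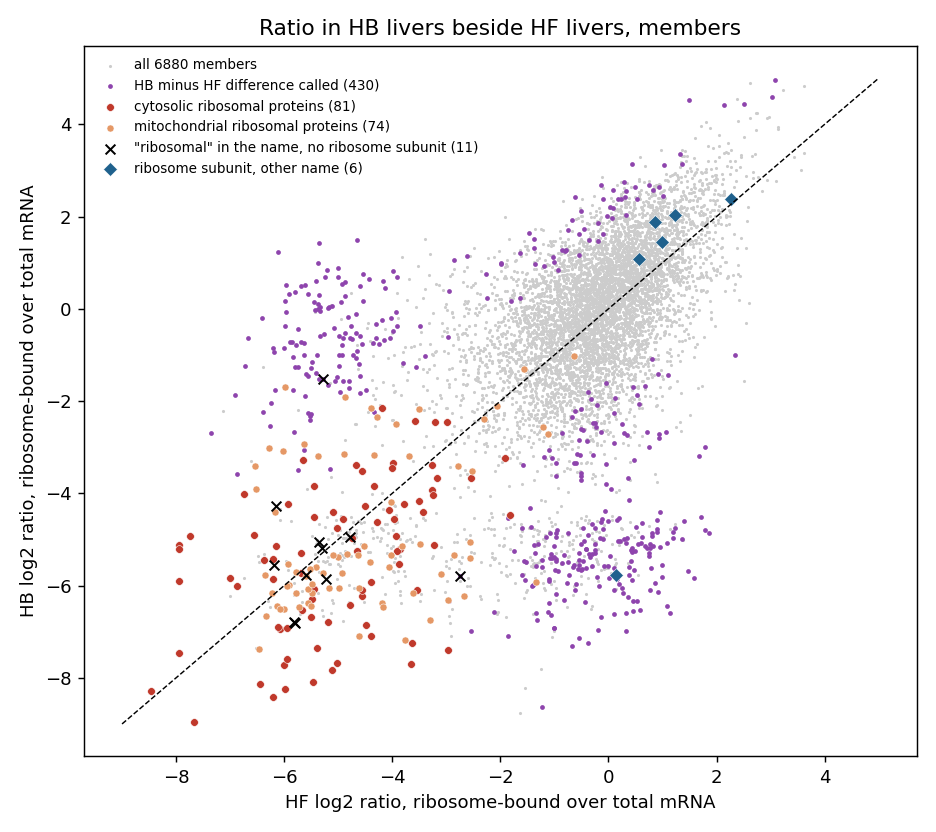
HB log2 ratio (vertical) against HF log2 ratio (horizontal) of 6880 members, with equal values dashed, members whose diet difference was called in purple and the ribosome-related sets marked. Ribosomal protein genes and the kinase and processing genes are low on both axes, whereas the purple groups at about -5 on 1 axis are genes at or near 0 ribosome-bound reads in 1 diet.

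Members with m6A peaks were compared with those without, because the series also mapped N6-methyladenosine (m6A), a methyl mark on mRNA, in the same kind of livers. The 3224 members with a peak summit within the gene in both HB m6A libraries had a median HB ratio of -0.07, against -0.39 for the 2014 members with none. Within bins of transcript length the medians were -0.25 with a peak and -0.44 without at 1 to 2 kb, -0.18 and -0.36 at 2 to 4 kb, and 0.04 and -0.09 at 4 to 6 kb. Under 1 kb they were -0.14 and -0.71 (0.16 and -0.15 without the ribosomal protein lists), and over 6 kb the order was the other way, at 0.15 with a peak and 0.22 without, with 22 genes in the second set. In HF the medians of the same genes were -0.30 with a peak and -0.27 without. Peaks are detected more readily in abundant transcripts and the m6A and mRNA samples may not share animals, so these are descriptions without a test.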

How the data were processed

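Ribosome-bound (RNC) and total polyadenylated mRNA of mouse liver were sequenced in 8 of the 16 samples, and the HB libraries carry the results. Per the deposited files, the authors gave read counts and RPKM for 24539 genes with the longest transcript of each gene. Per the labels, RNC were pelleted through sucrose and reads were mapped to RefSeq RNA sequences. The submitters' processing notes name edgeR, HTSeq 0.6.0, HISAT2 2.0.4, cutadapt 1.9.3 and MACS2 2.1.0.20151222 without tying them to tables. How shared reads were counted, the strand setting and any removal of ribosomal reads in these tables are not given in the sources used here. The authors' m6A peaks carry fold enrichment values; peaks of the HB libraries were used by position only, and m6A inputs and HF peaks were not used here.

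CPM was computed from the counts with each table's total. The plain log2 ratio is log2((summed HB ribosome-bound CPM + 0.5)/(mean HB total mRNA CPM + 0.5)). The test was edgeR 4.0.16 (R 4.3.3) with quasi-likelihood fitting on 7 libraries with 4 group means, library totals, filterByExpr and Benjamini-Hochberg adjustment over 13454 genes at 0.05; values beside an adjusted p are fitted log2 ratios with their SE, and ratios of genes without reads are given as plain ratios or as limits from 3 reads. Such limits cover counting error only. On simulated data the test called few of the genes given a change, so a gene not called can still differ. Alternatives were TMM, DESeq2 1.42.0, limma 3.58.1 (voom, and log2(RPKM + 0.1) from the deposited RPKM), other filters, thresholds, pseudocounts and libraries. Deviations of same-numbered libraries correlated at 0.08 in HF and 0.03 in HB; the HB value carries no weight, since the HB ribosome-bound tables are near-copies, so the numbers were not shown to pair libraries. The labels do not name separate animals, so p-values measure the spread between these pooled samples.

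Named genes were the 10 highest and 10 lowest called members with at least 20 ribosome-bound reads, the 5 most abundant at 0 reads, the 10 most abundant, the longest and shortest, up to 4 per list, and a fixed set of liver, translation and methyl-donor genes; Apoc1, Apoc4, Acadm, Hadh, Hadha, Cth, Mthfd1, Hmgcs1, Eif4b, Gas5, the start-site examples and the name sets were chosen after their values were seen. Members and lists were chosen with earlier results of these data known.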

Additional observations from a re-analysis of the deposited data

Results flagged for a closer look

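For 29 members that the naming rule or the added genes and sets gave the HB and HF ratios differed by the interaction test (edgeR quasi-likelihood, adjusted over all genes), which is what brought them here; the values are fitted log2 differences, HB minus HF, and every one is lost without any 1 total mRNA library. Among genes with reads in both diets, the HB ratio was higher for Magt1 (1.88), Larp4b (1.57), Zcchc7 (3.07), Nop56 (1.95), Ppan (2.33), Gas5 (1.92) and Atf4 (1.68). It was lower for Rplp0 (-2.64), Rpl17 (-2.71), Eef2 (-2.06), Pemt (-2.19), Ndufb6 (-2.93), Sdhc (-1.84), a membrane anchor of succinate dehydrogenase, Hist1h2bc (-2.16), a histone, and Atp5f1 (-5.72).

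The other 14 had 0 or near 0 ribosome-bound reads in 1 diet, so the size of the fitted difference depends on how the fit treats a count of 0 and is no estimate. They were Acads (-13.08), Npm1 (-12.56), Saa2 (-13.14), Gsta4 (-12.26), Hars (-11.82), Chchd1 (-11.57), Amt (-10.65), Psmd13 (-9.02), H2afv (-12.55), Colec11 (-11.84), Hspa4l (-10.65), Gpr182 (-10.45) and Rsl1d1 (-5.09), low in HB, and Rrp36 (9.36), low in HF. Saa2, an acute-phase protein, had 0 CPM in both HB ribosome-bound tables and 55.4 and 17.6 CPM in the HF ones. Hars, the histidyl-tRNA synthetase, had 0 CPM in HB and 29.9 and 19.9 CPM in HF.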

How the results depend on the processing

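Leaving out 1 library moved the HB calls over all genes between 0 and 8791 (3780 with all), members higher between 0 and 1628 (717), members lower between 0 and 2244 (870), HF calls between 0 and 7870 (3912) and diet differences between 0 and 5000 (1289). The 0 came from each total mRNA library and the high counts from each HF ribosome-bound library; the common dispersion was 0.481 with all libraries and 0.0671 without HF ribosome-bound replicate 1 or 2. Without 1 HB ribosome-bound table the counts stayed within 1.5 times. HB libraries only gave 8516 calls, 1429 members higher and 2039 lower. The HB pair kept as 2 libraries gave 1293 higher, 1570 lower and 2136 diet differences. With the replicate block, in a design where the numbers were not shown to pair the libraries and, for HB, could not be checked, there were 1466 HB calls, 25 HF calls and 0 diet differences (2782 at an unadjusted p under 0.05; DESeq2 without the block called 2233). TMM scaling gave 457 members higher, DESeq2 1856 lower, and the length trend removed 1841 higher, 570 lower and 6439 HF calls; 464 of the lower members had at least 20 reads. The cause of these shifts was not tested.

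The members' median was -0.53 with TMM, -0.46 at 50 CPM, -0.028 with members chosen on HF total mRNA and 0.22 with members chosen on the mean of both kinds of library. The median over 6 kb minus that under 1 kb was 0.67, 0.43 to 0.97 with 1 HB library left out (lowest without total mRNA library 2, highest without library 1), 1.30 at 50 CPM and 0.25 without the ribosomal protein lists (an alternative chosen after seeing the data, as was the minimum of 20 reads). The ribosomal protein median of -5.38 was -5.69 with TMM, -6.12 and -4.88 with pseudocounts of 0.1 and 1 CPM and -5.26 at 50 CPM. It was -5.53 with members chosen on the mean and -5.12 with the members' own length trend subtracted. With the length offset in the fit, where the members' median was 0.87, 3 named genes changed sign: Dgat2 (0.046), Fth1 (0.014) and Ftl1 (1.12). Depth limits the zeros: 3 reads in the summed library are 0.198 CPM.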

Other observations

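Groups under known translational control were read in the same way, beside 10.4% of all members higher and 12.6% lower. Of 11 members with regulatory upstream open reading frames 2 were higher and 1 lower (median -0.26): Ddit3, the stress factor CHOP, had 98.5 and 103 CPM ribosome-bound, against 12.1 and 18.3 CPM in total mRNA (log2 ratio 2.73 ± 0.40 (SE), adjusted p = 0.024), Atf4 is given above, and Odc1, of polyamine synthesis, had 8.30 and 9.70 CPM ribosome-bound, against 78.2 and 61.0 CPM in total mRNA. The ferritin mRNAs, which carry iron-responsive elements, had ratios of -1.02 (Fth1, adjusted p = 0.0445) and -0.04 (Ftl1, not past the test), and 1 of 7 members of that list was called. Of 13 selenoprotein members 4 were lower and 1 higher (median -0.87). Selenop, the plasma selenium carrier, had 551 and 545 CPM ribosome-bound, against 4918 and 2563 CPM in total mRNA, Gpx1, a glutathione peroxidase, had 437 and 441 CPM ribosome-bound, against 2102 and 2750.5 CPM in total mRNA, and Txnrd2, the mitochondrial thioredoxin reductase, had 266 and 271 CPM ribosome-bound, against 47.6 and 47.6 CPM in total mRNA. With a length trend removed Selenop was not called (-1.70). Gpx4, which protects membranes, had a ratio of 1.20 and did not pass the test.

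Beside the counts of the lists that follow, 10.4% of all members were higher and 12.6% lower. Aminoacyl-tRNA synthetases had 5 of 20 members higher and 2 lower (median 0.47). They were led by Cars, the cysteinyl enzyme, with 175 and 178 CPM ribosome-bound, against 27.6 and 33.98 CPM in total mRNA. Proteasome subunits had 6 higher and 2 lower of 36 (median -0.21, and 0.05 with the members' own length trend subtracted), with Psmd4, a ubiquitin receptor, at 2.49. Endoplasmic reticulum folding and translocation genes had 9 of 46 lower and 2 higher (median -1.10); Sec62, of the translocon, had 549 and 563 CPM ribosome-bound, against 118 and 60.5 CPM in total mRNA, and Srp14, of the signal recognition particle, had 0 ribosome-bound reads, against 46.1 and 51.2 CPM in total mRNA. Cytosolic chaperones had 5 lower and 2 higher of 27, and the most abundant, Hspa8, had 5927 and 5956 CPM ribosome-bound, against 1807 and 1822 CPM in total mRNA (log2 ratio 1.71 ± 0.30 (SE), adjusted p = 0.0254). Of 11 m6A writers, erasers and readers 3 were higher and 1 lower (median -0.03, 0.48 without HB total mRNA library 1 and 0.56 with members chosen on the mean of ribosome-bound and total mRNA): Zc3h13, of the writer complex, had 191 and 180.4 CPM ribosome-bound, against 24.5 and 29.8 CPM in total mRNA, and Hnrnpa2b1, a nuclear reader, had 58.8 and 58.2 CPM ribosome-bound, against 273 and 166 CPM in total mRNA (not called with a length trend removed, at -0.85).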
